A study of Mus musculus with 10 samples.

Results

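The BCL2 family holds the proteins that decide whether the outer mitochondrial membrane is breached in apoptosis. In TH-MYCN mouse neuroblastoma, 10 of its genes were followed by RNA sequencing, out of 54446 gene identifiers counted. They were chosen by role, as 5 BH3-only genes (Bbc3, Pmaip1, Bcl2l11, Bid and Bad), the effectors Bax and Bak1, and the protective genes Bcl2, Bcl2l1 and Mcl1, and were found by symbol. TH-MYCN mice carry a human MYCN transgene under the tyrosine hydroxylase promoter and form tumours of the sympathetic nervous system, and all 3 groups share this background. Tumours came from mice treated for 24 h (n = 3 libraries, numbered 2 to 4) or for 5 days (n = 4, numbered 1 to 4) with MLN8237 (alisertib, which blocks Aurora-A, a kinase of mitosis) and AZD6738 (ceralasertib, which blocks ATR, a kinase of the DNA damage checkpoint), or from untreated mice (n = 3, numbered 1 to 3). Sample titles call the treatment a combination, whereas the design text puts "or" between the drug names. The sources used here do not give the dose, the age or the sex of the mice. Whether each library stands for its own mouse is not stated either, so the p-values reflect only how far these libraries spread, which may be technical.

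BH3-only proteins are sensors of damage and of lost survival signals. They bind protective members such as MCL1 and BCL-XL, and some of them also switch on BAX and BAK directly, which then form pores that release cytochrome c. Transcription sets the level of some members, above all the p53 targets Bbc3 (PUMA) and Pmaip1 (NOXA), while others are controlled mainly by cleavage, phosphorylation or rapid turnover of the protein, which RNA counts do not show. In neuroblastoma, high MYCN is known to raise sensitivity to apoptosis, and BCL2 and MCL1 are known survival factors of the tumour cells.

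The libraries were of nearly equal depth, with 5576926 to 5696436 counts each. Levels are given as CPM, read counts relative to library size after scaling by the trimmed mean of M values (TMM), and as RPKM, CPM per kilobase of exon, where genes are compared with each other. Adrenergic identity was present in every library, with 0 of 10 markers at 0. Library 1 of the 5-day group stood apart. Its adrenergic markers summed to 651.7 CPM, against 1867 to 2956 CPM in the other 9 libraries, and Mycn was at 21.6 CPM, against 79.7 to 111.7 CPM. Its 12 macrophage markers summed to 14010 CPM (575 to 1654 CPM elsewhere), its 8 fibroblast markers to 17520 CPM (345.5 to 2647 CPM), its 8 adipocyte markers to 12440 CPM (70.2 to 1708 CPM) and its 6 endothelial markers to 492.9 CPM (35.7 to 149.9 CPM), with 0 markers of these lists at 0. In 5-day library 2, the 6 adrenal cortex markers summed to 1603 CPM, against at most 94.5 CPM elsewhere, and the 5 hepatocyte markers to 309.5 CPM, against at most 8.07 CPM. Skeletal muscle RNA (5 markers) made up 363.4 CPM there and 129.9 CPM of 5-day library 4, against at most 7.23 CPM elsewhere, with Acta1 at 0 in every library. Mycn here is the mouse gene, and how far reads of the human MYCN transgene enter its counts was not tested. In bulk tumour RNA, fewer cells of a type and less RNA per cell cannot be told apart. Each comparison is therefore given with all 10 libraries and without 5-day library 1. Leaving it out lowered the typical variation between replicates (edgeR's common biological coefficient of variation) to 18.9%, against 40.8% with all 10 libraries.

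Of the 10 members, 9 could be tested with all libraries and 8 without 5-day library 1. None passed an adjusted p of 0.05 in any of the 3 comparisons with either set of libraries. Across all tested genes the share that passed was 0% (0 of 14956) in each of the 3 comparisons with all 10 libraries. Without 5-day library 1 it was 0.0136% (2 of 14699) for 24 h against untreated, 0% for 5 days against untreated and 0% for 5 days against 24 h. At an unadjusted p under 0.05, edgeR with all libraries gave 263, 1257 and 942 genes in these comparisons, and DESeq2 passed 0, 21 and 3 genes at an adjusted p of 0.05, with no member among them. The member with the smallest p against untreated at both times was Bbc3, and its values are given first.

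Bbc3 (ENSMUSG00000002083, chr7:16308393-16318205 on the plus strand, mm10) encodes PUMA, a BH3-only protein that binds all protective members and is a classic target of p53. Its normalised read count was 35.5, 26.9 and 33.5 CPM in untreated libraries 1 to 3, 55.2, 49.3 and 64.1 CPM in 24 h libraries 2 to 4, and 30.1, 51.7, 54.4 and 61.5 CPM in 5-day libraries 1 to 4. All 3 libraries at 24 h and 5-day libraries 2 to 4 lay above all 3 untreated ones, and 5-day library 1 lay within the untreated range. These values rest on 138 to 368 counts per library.

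At 24 h Bbc3 averaged 56.2 ± 7.48 CPM, against 32.0 ± 4.52 CPM in untreated tumours (SD, n = 3 each). The log2 fold change was 0.81 ± 0.25 (SE) with all 10 libraries, with an adjusted p of 0.9997 in edgeR's quasi-likelihood test. Without 5-day library 1 it was 0.82 ± 0.14 (SE), or 1.76-fold with a 95% interval of 1.43 to 2.17, and the adjusted p was 0.13 at an unadjusted p of 8.844e-05 in the same test. Bbc3 was then the gene with the 10th smallest p of 14699, so the difference was large against the replicate spread and still missed the threshold over all genes. At 5 days libraries 2 to 4 averaged 55.9 ± 5.07 CPM, against 32.0 ± 4.52 CPM in untreated tumours (SD, n = 3 each). The log2 fold change was 0.80 ± 0.14 (SE) without library 1, with an adjusted p of 0.22 in edgeR. It was 0.85 without libraries 1 and 2, with an adjusted p of 0.264, and 0.63 ± 0.24 (SE) with all libraries, with an adjusted p of 0.538. Between 5 days without library 1 and 24 h the log2 difference was -0.02, with a 95% interval of -0.31 to 0.28. A contrast chosen after the data were seen set both times together, without 5-day library 1, against untreated, which gave 0.81 ± 0.12 (SE) and an adjusted p of 0.0832 in edgeR. Both comparisons use the same 3 untreated libraries and are not independent of each other.

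Summed markers of 3 of 12 cell types lay wholly above untreated at 24 h. The macrophage markers summed to 1225 to 1523 CPM at 24 h and to 986 to 1654 CPM in 5-day libraries 2 to 4, against 575 to 982 CPM in untreated tumours, with 0 of 12 markers at 0 in any library. The 6 Schwann cell markers summed to 30.0 to 62.7 CPM at 24 h and 17.4 to 47.7 CPM in 5-day libraries 2 to 4, against 13.5 to 22.2 CPM in untreated tumours, so only the 24 h libraries lay clear. The 8 lymphocyte markers summed to 8.11 to 11.9 CPM at 24 h, against 3.67 to 8.05 CPM in untreated tumours, so the groups were barely apart. In 5-day libraries 2 to 4 they summed to 13.4, 9.81 and 6.58 CPM, which overlapped the untreated range. In each of these libraries 2 to 6 of the lymphocyte markers were at 0. In 5-day library 1 Bbc3 was at 30.1 CPM. There the macrophage markers summed to 14010 CPM, the fibroblast markers to 17520 CPM and the adrenergic markers to 651.7 CPM. Several cell types thus differed at once in that library, and the part of any of them in the Bbc3 values was not tested. Cdkn1a, another p53 target that encodes the cell cycle inhibitor p21, was at 33.1, 39.5 and 69.5 CPM at 24 h, against 10.2, 27.1 and 14.6 CPM in untreated tumours, without overlap. In 5-day libraries 2 to 4 it was at 50.8, 27.2 and 23.3 CPM, which overlapped the untreated range, and 5-day library 1 held 186.8 CPM.

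**Figure D1:**
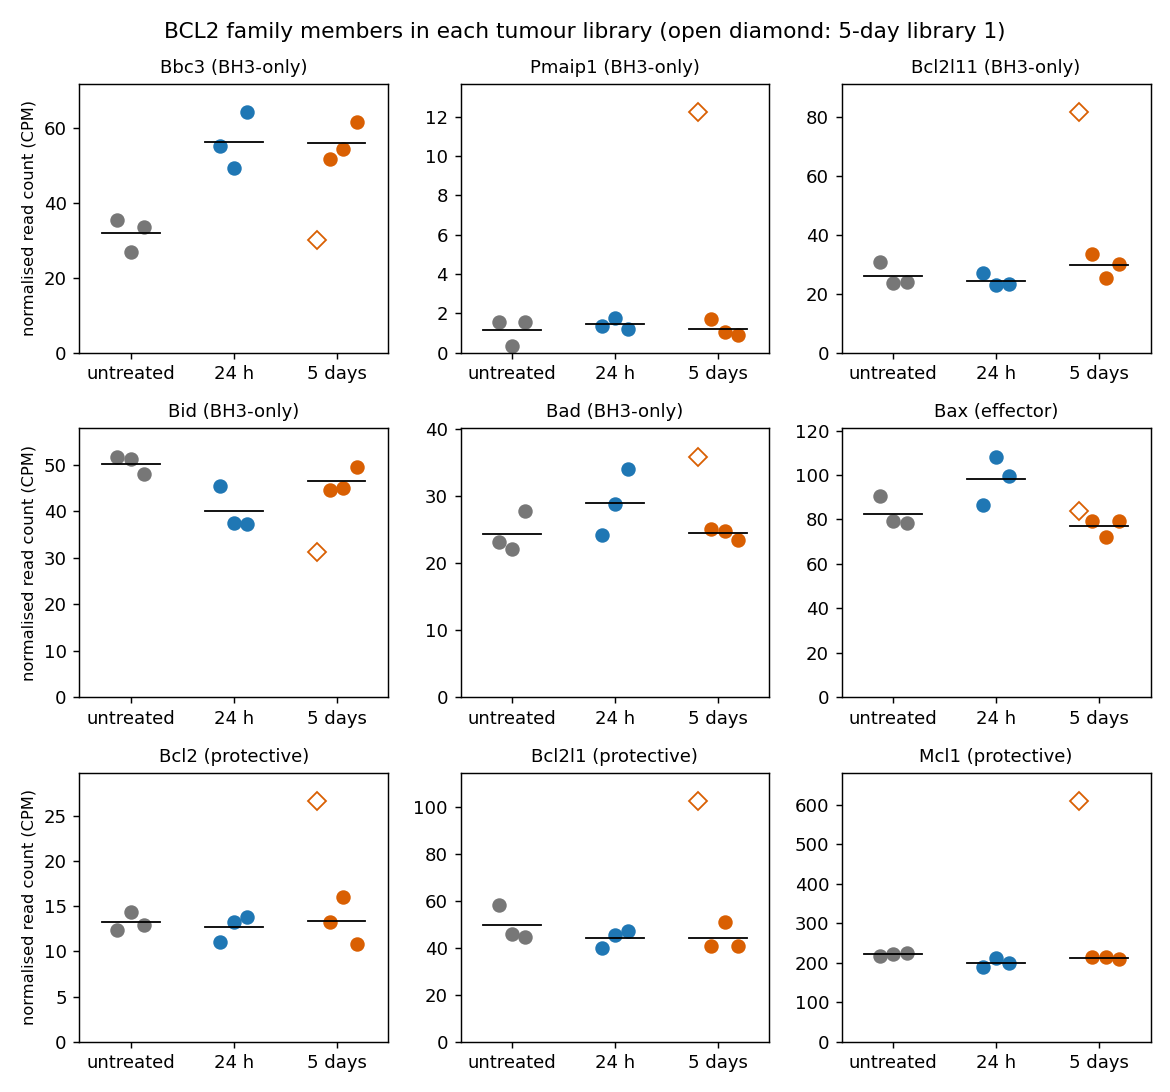
Normalised read count (CPM, vertical axis from 0) of 9 members in each library of the untreated, 24 h and 5-day groups; each point is 1 library, the open diamond is 5-day library 1, and the line is the group mean without that library. Bbc3 is at 49.3 to 64.1 CPM at 24 h and at 26.9 to 35.5 CPM in untreated tumours, while Mcl1, Bcl2l11, Bcl2l1 and Pmaip1 stand out only in the open diamond.

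The genome around the start sites of these genes is shown because Bbc3 carries the clearest difference and Bax is its effector partner and also a p53 target. RefSeq promoter windows (GRCm38.p6, 250 bases before to 50 after a start) were searched for 9 of the 10 members, 15 windows in all. Pmaip1, also a p53 target, was left out of this search, so the motif counts below do not cover it. The letters of a p53 half-site were found in 1 window, of Bax, and the E-box CACGTG, the letters bound by MYC and MYCN dimers, in 2 windows, 1 of the 3 of Bbc3 and that of Bax. Both motifs read the same on both strands and did not overlap. Of all 32851 windows of this length, 8.36% held a half-site and 7.15% this E-box. The 250 bases before the start are given 5′ to 3′ for the Bbc3 window with the E-box (chr7:16310181-16310430, plus strand; it overlaps the second Bbc3 window) and for Bax (chr7:45466899-45467148, minus strand). Capitals mark the E-box, which begins 64 bases before the start in Bbc3 and 9 bases before it in Bax. They also mark the half-site of Bax, which begins 201 bases before the start. The Bax window held 2 E-boxes in all, and the other lies after the start, outside the printed bases. A match of letters is a description and not a bound site.
Bbc3: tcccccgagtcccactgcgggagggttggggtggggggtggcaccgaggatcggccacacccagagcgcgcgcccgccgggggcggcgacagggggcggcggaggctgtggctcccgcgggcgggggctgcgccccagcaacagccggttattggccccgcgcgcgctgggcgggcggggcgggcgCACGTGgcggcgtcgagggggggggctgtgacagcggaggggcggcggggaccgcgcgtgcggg
Bax: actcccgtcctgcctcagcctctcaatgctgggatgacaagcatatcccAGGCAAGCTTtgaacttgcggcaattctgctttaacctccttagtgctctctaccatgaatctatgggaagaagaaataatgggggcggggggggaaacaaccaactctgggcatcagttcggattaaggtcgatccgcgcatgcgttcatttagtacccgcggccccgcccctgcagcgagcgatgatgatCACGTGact

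Among the other BH3-only genes, Bid and Bad had small differences at 24 h and Pmaip1 was barely counted. Bid (chr6:120891930-120916853, minus strand), whose protein is cleaved by caspase-8 to link death receptors to mitochondria, was at 45.4, 37.4 and 37.3 CPM at 24 h, against 51.6, 51.2 and 47.9 CPM in untreated tumours. The groups did not overlap. The log2 fold change without 5-day library 1 was -0.32 ± 0.11 (SE), with an adjusted p of 0.470 in edgeR. In 5-day libraries 2 to 4 it was at 44.6, 44.9 and 49.6 CPM, which overlapped the untreated range, and 5-day library 1 was the lowest of all at 31.2 CPM. Part of its exons, 17.7%, overlaps Bcl2l13 on the opposite strand, and the sources used here do not say whether the counting used strand, so reads of the shared bases cannot be told apart.

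Bad (chr19:6941861-6951899, plus strand), whose protein is held inactive by survival kinases, was at 24.2, 28.8 and 34.0 CPM at 24 h, against 23.1, 22.0 and 27.7 CPM in untreated tumours. These ranges overlapped, and the log2 fold change without 5-day library 1 was 0.26 ± 0.15 (SE, adjusted p of 0.691 in edgeR). It was at 35.8, 25.0, 24.8 and 23.5 CPM in 5-day libraries 1 to 4, and 20.5% of its exon bases are shared with Gpr137 on the other strand. Bcl2l11 (chr2:128126038-128162547, plus strand) encodes BIM, which responds to lost growth factor signals. It was at 27.1, 23.1 and 23.3 CPM at 24 h and at 81.6, 33.6, 25.5 and 30.2 CPM at 5 days, against 30.8, 23.7 and 23.9 CPM in untreated tumours. Apart from 5-day library 1 all groups overlapped, and the log2 fold changes without it were -0.09 (95% interval -0.43 to 0.25) at 24 h and 0.19 (-0.15 to 0.53) at 5 days.

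Pmaip1, which encodes NOXA, an MCL1-binding BH3-only protein and p53 target, had 8, 10 and 7 counts at 24 h and 56, 10, 6 and 5 counts at 5 days, against 9, 2 and 9 counts in untreated tumours. It passed the filter on low counts only through 5-day library 1, at 12.2 CPM, so no comparison is drawn from its test. In the other 9 libraries it was at 0.349 to 1.75 CPM, where 3 counts correspond to 0.516 to 0.533 CPM, and a difference between groups was not detectable at this depth.

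Of the effectors, Bax was well counted and Bak1 was listed at 0. Bax (ENSMUSG00000003873, chr7:45461697-45466898, minus strand), the pore-forming protein, was at 86.5, 108.1 and 99.7 CPM at 24 h, against 90.3, 79.1 and 78.4 CPM in untreated tumours. The ranges overlapped, and the log2 fold change without 5-day library 1 was 0.25 ± 0.11 (SE), with an adjusted p of 0.583 in edgeR. In 5-day libraries 2 to 4 Bax was at 79.3, 72.3 and 79.4 CPM, below all 3 libraries at 24 h, and 5-day library 1 was at 83.8 CPM. The log2 difference between 5 days without library 1 and 24 h was -0.36 ± 0.11 (SE), with an adjusted p of 0.602 in edgeR at an unadjusted p of 0.00694. A test of Bbc3 against Bax was not made. Bak1 (chr17:27019810-27029009, minus strand), the second effector, had 0 counts in all 10 libraries, where 3 counts, the limit that a count of 0 allows for counting error alone, correspond to 0.516 to 0.655 CPM. Bcl2l2, Bcl2a1d, Diablo and Fbxw7 from the lists below were also listed at 0 throughout. Whether such genes were left out by the counting was not tested. The limit in CPM holds only if Bak1 was counted, so the listed 0 does not show that Bak1 is silent in these tumours. Ggnbp1 shares 18.2% of the Bak1 exon bases on the opposite strand and held at most 94 counts.

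The protective genes had values close to untreated, apart from 5-day library 1. Mcl1 (ENSMUSG00000038612, chr3:95658788-95663176, plus strand), whose protein is short-lived and holds BIM and BAK in check, was at 188.9, 211.0 and 199.5 CPM at 24 h, against 216.2, 222.3 and 225.5 CPM in untreated tumours. The groups did not overlap, and the log2 fold change without 5-day library 1 was -0.14 (95% interval -0.31 to 0.03; adjusted p of 0.662 in edgeR). In the 5-day group it was at 608.5, 214.9, 215.1 and 208.5 CPM. Libraries 2 to 4 lay just below the untreated range, with a log2 fold change of -0.06 (95% interval -0.22 to 0.11), whereas with library 1 included it was 0.49 (-0.34 to 1.33), so the sign rests on that library.

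Bcl2l1 (chr2:152780668-152831728, minus strand), which encodes BCL-XL, was at 39.7, 45.4 and 47.0 CPM at 24 h and at 102.3, 40.7, 50.8 and 40.9 CPM at 5 days, against 58.3, 45.9 and 44.6 CPM in untreated tumours. The ranges overlapped apart from 5-day library 1. Its log2 fold change at 5 days was -0.17 (95% interval -0.48 to 0.14) without that library and 0.24 (-0.47 to 0.95) with it. Bcl2 (chr1:106538178-106714274, minus strand) was at 11.05, 13.3 and 13.8 CPM at 24 h and at 26.6, 13.3, 16.0 and 10.8 CPM at 5 days, against 12.4, 14.3 and 12.9 CPM in untreated tumours, again overlapping. For these genes the intervals without 5-day library 1 bound the differences: a fall of Mcl1 at 24 h beyond a log2 value of -0.31 lay outside its 95% interval, and for Bcl2l1 at 24 h the interval was -0.47 to 0.14.

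**Figure D2:**
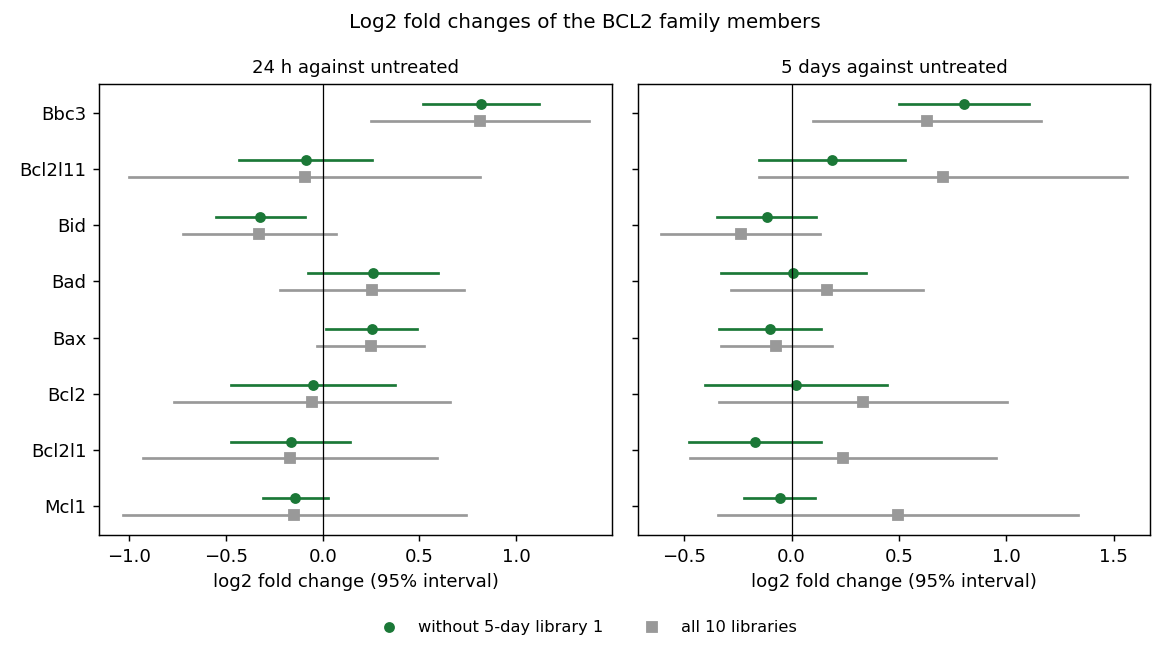
Log2 fold change (horizontal axis, with 95% intervals as bars) of the 8 members tested in both sets of libraries, at 24 h against untreated (left) and 5 days against untreated (right); circles are estimates without 5-day library 1, squares with all 10 libraries. Bbc3 sits at 0.82 and 0.80 without that library, and the intervals of the protective genes include 0 in both panels.

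Complete separation of the groups was counted over the 8 members and, as a background, over all 14699 genes. At 24 h, 1 member (Bbc3) lay wholly above the untreated libraries, against 7.15% of all genes, and 2 (Bid and Mcl1) lay wholly below, against 6.74%. For 5-day libraries 2 to 4 against untreated, 1 (Bbc3) lay above, against 6.61% of genes, and 1 (Mcl1) below, against 7.6%. Between 5-day libraries 2 to 4 and 24 h, 0 members lay above, against 5.25% of genes, and 1 (Bax) below, against 6.68%. Bbc3 was 1 of 302 genes (2.05%) that lay above untreated at both times.

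Set per length, Mcl1 and Bax were the highest of the members with counts in each group, which leaves out Bak1. Bbc3 was next by group mean and, in 5-day library 1, behind Bcl2l1. In untreated tumours Mcl1 was highest at 64.8 ± 1.37 RPKM, then Bax at 52.4 ± 4.25, Bbc3 at 15.1 ± 2.13, Bid at 14.2 ± 0.572, Bcl2l1 at 10.8 ± 1.65, Bad at 9.49 ± 1.18, Bcl2l11 at 3.26 ± 0.504, Bcl2 at 1.44 ± 0.107 and Pmaip1 at 0.426 ± 0.258 RPKM (SD, n = 3). Bbc3 and Bid overlapped in this order, as did Bcl2l1 and Bad, and the other neighbours did not. At 24 h Bax at 62.2 ± 6.91 RPKM and Mcl1 at 58.5 ± 3.24 RPKM overlapped (SD, n = 3). Bbc3 at 26.5 ± 3.52 RPKM then stood clear of Bad at 11.3 ± 1.92, Bid at 11.3 ± 1.31 and Bcl2l1 at 9.61 ± 0.840 RPKM, of which Bad overlapped with both others and Bid and Bcl2l1 did not overlap. In 5-day libraries 2 to 4 the order was Mcl1 (62.3 ± 1.10 RPKM), Bax (48.8 ± 2.60), Bbc3 (26.3 ± 2.39) and Bid (13.1 ± 0.785 RPKM, SD, n = 3), with no overlap between neighbours. In 5-day library 1 Mcl1 was at 178 RPKM, Bax at 53.2, Bcl2l1 at 22.3 and Bbc3 at 14.2 RPKM. These levels divide by all annotated exon bases of a gene, so a gene with long exons that the tumour does not use is set too low.

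Summed by role, the 5 BH3-only genes held 48.5 to 57.3 RPKM at 24 h and 51.5 to 56.2 RPKM at 5 days, against 38.8 to 44.7 RPKM in untreated tumours. Without Bbc3 the rest of these 5 genes held 25.3 to 27.1 RPKM at 24 h, against 26.1 to 28 RPKM in untreated tumours. In 5-day libraries 2 to 4 they held 25.9 to 27.2 RPKM. In 5-day library 1 they held 37.4 RPKM of its sum of 51.6 RPKM. Its place in the 5-day range thus rests on genes other than Bbc3. BH3-only genes outside these 5 are not in the sums. One of them, Hrk, was lower at 24 h, at 11.11 to 14.53 RPKM, against 14.98 to 19.18 RPKM in untreated tumours. In 5-day libraries 2 to 4 Hrk was at 13.63 to 18.67 RPKM, which overlapped the untreated range. A sum with Hrk was not computed, so the separation at 24 h holds for the 5 chosen genes only. The protective genes held 65.1 to 73.1 RPKM at 24 h and 71.1 to 75.7 RPKM in 5-day libraries 2 to 4, against 76.6 to 77.3 RPKM in untreated tumours, and 203.3 RPKM in 5-day library 1. Mcl1 made up 81.8% to 87.6% of this sum in every library. The ratio of Bbc3 to the protective sum was 0.399, 0.317 and 0.431 at 24 h, against 0.216, 0.165 and 0.204 in untreated tumours. It was 0.0697, 0.333, 0.338 and 0.407 in 5-day libraries 1 to 4, so library 1 had the lowest ratio of all and the other 3 lay above every untreated library. The ratio was not tested.

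**Figure D3:**
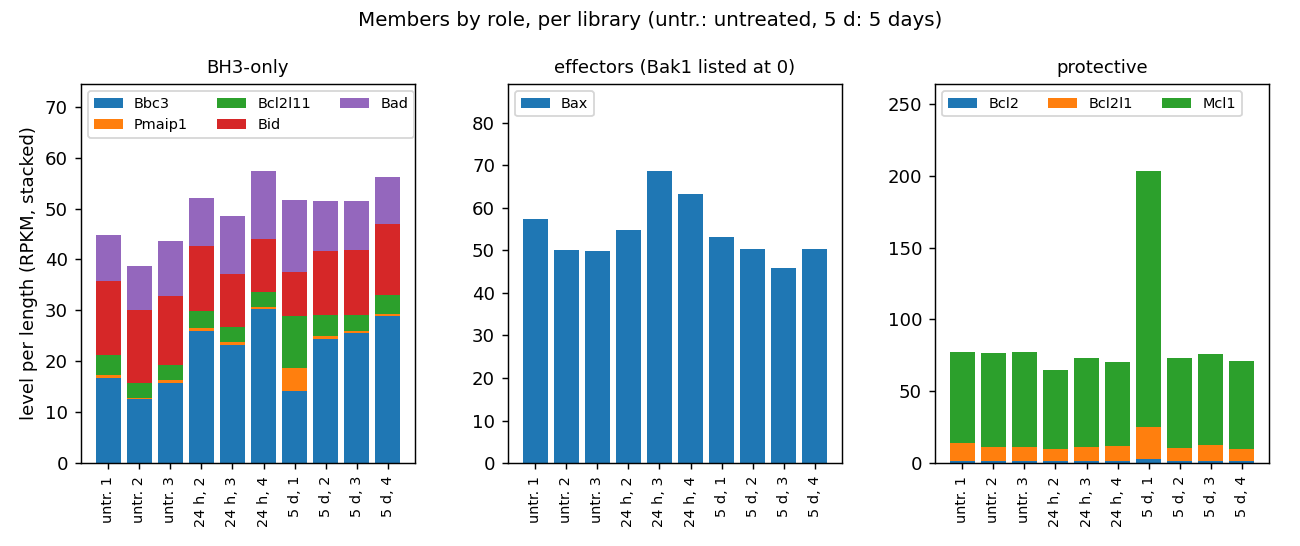
Level per exon length (RPKM, stacked, vertical axes from 0 with a separate scale per panel) of the BH3-only, effector and protective members in each library, in the order untreated, 24 h and 5 days. The Bbc3 segment is 23.2 to 30.2 RPKM at 24 h and 12.7 to 16.7 RPKM in untreated tumours, and the protective sum reaches 203.3 RPKM only in 5-day library 1.

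In 5-day library 1 the balance of the family was different from that of the other libraries. Of the 9 members counted there, 6 lay above all other 9 libraries, 1 (Bid) below all of them and 2 (Bbc3 and Bax) inside their range. In the same library 37.8% of all 14956 genes lay above and 38.1% lay below all others. Pmaip1 passed the filter on low counts only through this library, so its place and fold are a description. Other genes that passed in this way can raise the share above. Against the median of the other libraries, Pmaip1 was at 8.85-fold, Bcl2l11 at 3.20-fold, Mcl1 at 2.83-fold, Bcl2l1 at 2.25-fold, Bcl2 at 2.01-fold and Bad at 1.44-fold. Bid was at 0.687-fold and Bbc3 at 0.583-fold. TMM scaling enters these values, with a factor of 0.812 for this library and 1.001 to 1.039 for the others, and the scaling decides some places. Without it, a setting chosen after seeing the data, 5 members lay above all others: Mcl1 at 489.6 CPM, Bcl2l1, Bcl2l11, Bcl2 and Pmaip1. Bad at 28.8 CPM then lay inside the range of the others, and Bbc3 (24.2 CPM), Bax (67.4 CPM) and Bid (25.1 CPM) lay below all of them. The part of its high macrophage, fibroblast and adipocyte markers in these values was not tested.

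Other genes of the pathway were described from 4 lists. Of 15 other BCL2 family genes 7 were tested, and of these 0 passed in any comparison. Without 5-day library 1, at 24 h 3 were higher and 4 lower, with a median log2 fold change of -0.12, against -0.0015 over all genes. Hrk, a BH3-only gene of neurons, was at 82.5, 78.8 and 63.1 CPM at 24 h, against 108.9, 85.0 and 103.3 CPM in untreated tumours, without overlap, with a log2 fold change of -0.40 (adjusted p of 0.515 in edgeR). Bok, a BAX relative, had 0.18 and Bcl2l13, a mitophagy receptor, -0.21 at 24 h. At 5 days the smallest p-values of this list belonged to Bcl2a1a (1.13), one of a set of near-identical copies and thus uncertain, Bnip3 (0.50) and Bok (0.13), all with adjusted p of 0.725 or more in edgeR.

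Of 17 genes of the caspase cascade 16 were tested and 0 passed. At 24 h 9 were higher and 7 lower without 5-day library 1, with a median of 0.04. Endog, a mitochondrial nuclease, was at 16.5, 20.5 and 16.7 CPM in 5-day libraries 2 to 4, against 13.5, 11.9 and 14.3 CPM in untreated tumours, without overlap (log2 fold change 0.44, adjusted p of 0.562 in edgeR). Its log2 fold change at 24 h was 0.33. Xiap, the caspase inhibitor, had -0.17, and Birc5, which encodes survivin, 0.19 at 24 h. Birc3, an inhibitor of apoptosis protein, had 0.72 and Apaf1, the apoptosome scaffold, 0.17 at 5 days.

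Of 10 death receptor genes 7 were tested without 5-day library 1 and 0 passed, with 6 higher and 1 lower at 24 h and a median of 0.28. Tnfrsf10b, the TRAIL receptor and a p53 target, was at 7.60, 6.64 and 8.54 CPM at 24 h, against 4.03, 5.41 and 4.88 CPM in untreated tumours, without overlap (log2 fold change 0.67, adjusted p of 0.580 in edgeR). At 5 days its log2 fold change was 0.19. Ripk1 had 0.28 and Cflar, the caspase-8 inhibitor, 0.38 at 24 h, and Cflar had 0.47 and Casp8 0.56 at 5 days. With 5-day library 1 included, 9 genes of this list were tested and the median at 5 days was 1.90. Fas and Tnfsf10 passed the filter only through that library. Over the same 7 genes the median was 1.27 with 5-day library 1 and 0.17 without it. Casp8 was at 91.9 CPM in that library and at 1.78 to 11.03 CPM elsewhere.

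Of 14 regulators of BH3-only genes and their partners 12 were tested and 0 passed, with 7 higher and 5 lower at 24 h and a median of 0.01 without 5-day library 1. Trp53 itself had a log2 fold change of 0.02 at 24 h and -0.11 at 5 days, values of RNA that do not show p53 protein. Mdm2, the p53 ligase and a p53 target, was at 112.2, 115.4 and 115.3 CPM at 24 h, against 94.2, 104.9 and 99.7 CPM in untreated tumours, without overlap (log2 fold change 0.21, adjusted p of 0.553 in edgeR), and had 0.11 at 5 days. Ddit3, a factor of the unfolded protein response, had 0.43 and Usp9x, a deubiquitinase of MCL1, -0.29 at 24 h. Foxo3, an activator of Bcl2l11 and Bbc3, was at 96.8, 129.0 and 111.3 CPM in 5-day libraries 2 to 4, against 92.1, 83.3 and 77.2 CPM in untreated tumours, without overlap (log2 fold change 0.42, adjusted p of 0.526 in edgeR). Foxo1 had 1.01 at 5 days, at levels of 2.67 to 19.0 CPM in libraries 2 to 4.

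The genes whose pattern was most like that of Bbc3 were found by Pearson's r of log2(CPM + 0.5) over the 9 libraries without 5-day library 1, among 12480 tested genes with a mean of at least 5 CPM. These were Cntrob (r = 0.964), a centrosome gene, Pnrc2 (0.961), a gene of RNA decay, Cdc20 (0.957), the activator of the anaphase-promoting complex, Arl4c (0.951), a small GTPase, and Cenpl (0.945), a centromere gene. The 9 points share their 3 groups and the scaling, and the highest r among so many genes is high by selection, so these values are a description. Cdc20 was at 343, 296 and 347.2 CPM at 24 h, against 257.4, 247.2 and 242 CPM in untreated tumours. In 5-day library 1, which the search did not use, Cdc20 was at 97.8 CPM, Cntrob at 30.1 CPM and Cenpl at 14.2 CPM, each below all other libraries. Pnrc2 lay inside the range of the others at 102.8 CPM, and Arl4c was above all of them at 130.7 CPM.

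**Figure D4:**
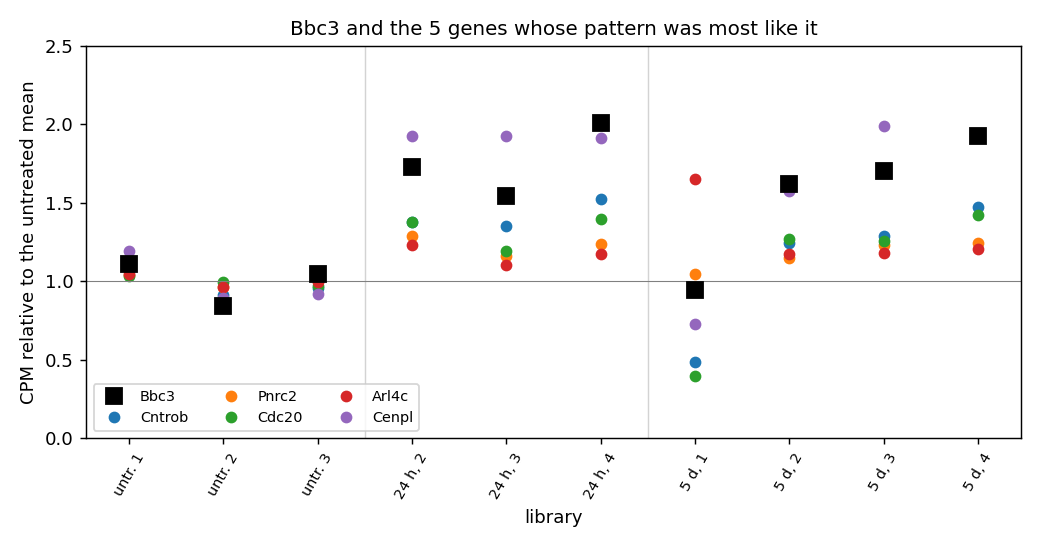
CPM relative to the untreated mean (vertical axis from 0; the line marks 1) of Bbc3 (black squares) and the 5 genes most like it, by library in the order untreated, 24 h and 5 days. All 6 genes lie above 1 in the 24 h libraries and in 5-day libraries 2 to 4, and they part in 5-day library 1, where Arl4c is at 130.7 CPM and Cdc20 at 97.8 CPM.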

How the data were processed

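RNA of 10 tumour libraries was analysed: 24 h (n = 3), 5 days (n = 4) and untreated (n = 3). The deposited values are whole-number counts per Ensembl gene. Per the labels' protocols, flash-frozen tumours were extracted with Trizol and polyadenylated RNA was prepared with NEB protocols. Per the submitters' processing notes, the build was mm10 and the tools TopHat2 2.1.1, HISAT2 and edgeR, with no role given. The sources used here do not name the counter, its annotation or its strand setting. Near-identical and overlapping genes are therefore uncertain.

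Symbols, positions and exon lengths came from GENCODE M21 (54409 of 54446 identifiers matched; the other 37 held at most 0.00412% of a library). Unmatched columns numbered 0. Genes were kept with filterByExpr (minimum count 10, minimum total 15). Counts were fitted with edgeR 4.0.16 in R 4.3.3 (TMM, 1 mean per group, robust quasi-likelihood F test) over all 10 libraries and again without 5-day library 1. P-values were adjusted with Benjamini-Hochberg over all genes tested. Standard errors and 95% intervals were derived from the F statistic and cover these libraries only. The limit of 3 counts covers counting error only. No pair of libraries within a group agreed within sampling noise. DESeq2 1.42.0 was an alternative, as were its size factors, a fit with no filter, one with only genes averaging at least 5 CPM, one with the compared groups alone, the replicate number as a block, and each library left out in turn. Fits of the compared groups or with the block, both without 5-day library 1, the contrast of both times together, and CPM without TMM scaling were chosen after seeing the data. The fits were also run on simulated counts with planted changes and no outlying library. The share recovered is not reported here, so no statement on power is drawn from it. Sequences came from RefSeq promoter tables. Plots used Python 3.11.15 and matplotlib 3.10.9.

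All 10 members are named. From each pathway list the 3 genes with the smallest unadjusted p at 24 h and at 5 days without 5-day library 1 are named, with Mycn and Cdkn1a as checks; Trp53, Casp8 at 5-day library 1 and the genes listed at 0 were named after their values were seen. The members and lists were chosen with earlier results of these data known.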

Additional observations from a re-analysis of the deposited data

Results flagged for a closer look

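In the 5-day group, library 1 lay far from the other 3 libraries for 5 of the 9 members counted. The gap to the nearest library, divided by the range of the group, passed the 95% critical value of Dixon's test for 4 values. Pmaip1 was at 12.2 CPM in library 1, with a ratio of 0.926, and Mcl1 at 608.5 CPM, with 0.984. Bad was at 35.8 CPM (0.876), Bcl2l11 at 81.6 CPM (0.855) and Bcl2l1 at 102.3 CPM (0.836). Bid (0.73), Bbc3 (0.688), Bcl2 (0.673) and Bax (0.608, for library 3) did not reach it. Without TMM scaling, chosen after seeing the data, the ratio was 0.951 for Mcl1, 0.9 for Pmaip1 and 0.858 for Bid, which passed, and 0.787 for Bcl2l11, 0.721 for Bcl2l1 and 0.562 for Bad, which did not. Chance alone flags about 1 in 20 groups, and the 5 values come from 1 library. Its markers had already set that library apart, so the flags add no separate support. Over all 14956 genes, 37.8% lay above and 38.1% below the other 9 libraries there. The share of all genes flagged by Dixon's test was not computed. Pmaip1 passed the filter on low counts only through library 1. That library also held 14010 CPM of macrophage and 17520 CPM of fibroblast markers. Their part in these values was not tested.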

How the results depend on the processing

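Over the alternatives run, no member was called in any comparison, and 381 member values kept their direction and side of the threshold while 24 changed sign. Bbc3 ranged from 0.60 to 0.91 at 24 h over 15 settings (adjusted p 0.119 to 1) and from 0.48 to 0.85 at 5 days over 16 settings (adjusted p 0.13 to 0.794).

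The number of genes called was 0 in each comparison with all libraries. DESeq2 called 21 at 5 days against untreated and 3 at 5 days against 24 h. A fit of the compared groups alone called 7 at 24 h. Without 5-day libraries 1 and 2, 3 were called at 24 h and 2 at 5 days against 24 h. Leaving out 1 library in turn gave 0 to 2 at 24 h, with 2 without 5-day library 1. The causes were not tested.

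Of the values that changed sign, Mcl1 at 5 days against untreated was the largest with all libraries, at 0.49. Next was Bcl2l1 at 5 days against 24 h, at 0.41. With the replicate number as a block, the 24 h values were 0.25 for Bcl2l11, 0.15 for Bcl2, 0.12 for Bcl2l1 and 0.13 for Mcl1. Bbc3 then had 0.60 at 24 h (adjusted p 0.900) and 0.48 at 5 days (adjusted p 0.510), with 0 genes called. Deviations of same-numbered libraries from their group means correlated at 0.211 and 0.247 between untreated and 24 h. With a 5-day library in the pair the values were -0.395 to 0.026. The 5-day mean includes library 1, which shifts the deviations of that group, so the check cannot decide whether the numbers mark pairs. The labels do not say so either, and the block is given as an alternative only. With the block and without 5-day library 1, Bcl2l11 had 0.058 at 24 h, and at 5 days against untreated Bad had -0.054, Bcl2l1 -0.035 and Mcl1 -0.057. Bcl2l1 had -0.0062 at 5 days against 24 h. Without 5-day libraries 1 and 2, Bad had -0.014, Bcl2l1 -0.12 and Mcl1 -0.069 at 5 days against untreated, and Bbc3 had 0.0395 at 5 days against 24 h. In the compared groups alone without 5-day library 1, Bcl2l1 had -0.17 and Mcl1 -0.054 at 5 days against untreated, and Bcl2l1 had -0.0038 at 5 days against 24 h.

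Leaving out each library in turn gave, at 24 h, -0.17 to 0.0405 for Bcl2l11 and -0.12 to 0.03 for Bcl2. For Pmaip1, from whose fit no comparison is drawn, it gave -0.11 to 0.58. At 5 days against untreated it gave -0.17 to 0.39 for Bcl2l1 and -0.056 to 0.65 for Mcl1. At 5 days against 24 h it gave -0.0035 to 0.56 for Bcl2l1 and -0.25 to 0.031 for Bad. At this depth Pmaip1 was too low for a comparison and was not tested under the stricter filters.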
